A study of Rattus norvegicus with 14 samples.

Results

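Myosin light chains were followed in the soleus, a calf muscle made mostly of slow fibres, of male Sprague Dawley rats after tenotomy, the severing of the tendon that removes the load from the muscle. The set holds 5 sarcomeric light chain genes: Myl2 and Myl3 of slow fibres, Myl1 and Mylpf of fast fibres, and Myl4 of developing muscle. They were chosen by name, as every probe set whose single gene symbol is a member. This gave 6 probe sets for 5 genes, of 31099 probe sets and 14217 genes in all. Myl2 has 2 of them, and each other gene has 1. The array annotation lists Mylpf as Myl11, and both names share 1 gene ID (24584). All 6 lay above the filter on dim signals on each of the 14 arrays.

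Whole soleus RNA was measured on 14 Affymetrix arrays, 1 per muscle. Tenotomized muscles fall into a short-term group of 6 arrays (2 at 1 week, 2 at 2 weeks, 1 at 3 weeks and 1 at 4 weeks) and a long-term group of 4 arrays (2 at 6 weeks, 1 at 16 weeks and 1 at 22 weeks). The sample labels call these groups short-term immobilized and long-term immobilized, while the sample titles name tenotomy. The 4 control arrays are left muscles of 4 rats, called controls 1 to 4 here, and each tenotomized muscle is a right one. Controls 1 and 4 come from rats 62 and 61, whose right muscles were tenotomized for 6 weeks, so these controls are the opposite legs of operated animals. No rat gave both a control and a short-term array, and the labels give no age, so that tenotomy and a difference between cohorts cannot be told apart in that comparison. Control 3 and control 4 stand apart from the others in fast fibre genes, as described with Mylpf, and the results that rest on them are given with and without them.

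In the sarcomere each myosin heavy chain carries an essential and a regulatory light chain on its lever arm, which stiffen the arm and tune the speed and calcium sensitivity of contraction. Myl2 encodes the regulatory and Myl3 the essential chain of slow skeletal and ventricular muscle. Mylpf encodes the fast regulatory chain, and Myl1 encodes the fast essential chains, a long and a short form made from alternative start sites. Myl4 encodes the essential chain of embryonic skeletal muscle and of the atrium. Skeletal myosin light chain kinase phosphorylates the regulatory chain, which raises force at low calcium.

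The promoters of Myl4, Mylpf and Myl3 are shown because the test with 1 probe set per gene called these members in at least 1 comparison. Each sequence holds the 250 bases before 1 annotated transcription start in RefSeq (build GRCr8), 5′ to 3′ on the gene's own strand. The windows are chr10:89975900-89976149, plus strand, for Myl4, chr1:191260039-191260288, plus strand, for Mylpf and chr8:119616844-119617093, plus strand, for Myl3. Those of Myl4 and Mylpf lie inside the annotated gene spans (chr10:89949733-89985308 and chr1:191257432-191263046), so they precede a start within the gene. That of Myl3 runs past the first base of its gene span (119617077). Capitals mark letters that match an E-box (CANNTG), to which myogenic factors can bind, a TATA box (TATAAA), a MEF2 site or a CArG box, searched on both strands.
Myl4: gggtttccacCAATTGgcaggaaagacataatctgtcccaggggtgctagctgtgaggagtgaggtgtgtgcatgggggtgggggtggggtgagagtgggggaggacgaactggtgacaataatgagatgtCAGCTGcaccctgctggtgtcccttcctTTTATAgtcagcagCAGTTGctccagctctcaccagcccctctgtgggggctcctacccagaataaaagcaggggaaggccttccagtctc
Mylpf: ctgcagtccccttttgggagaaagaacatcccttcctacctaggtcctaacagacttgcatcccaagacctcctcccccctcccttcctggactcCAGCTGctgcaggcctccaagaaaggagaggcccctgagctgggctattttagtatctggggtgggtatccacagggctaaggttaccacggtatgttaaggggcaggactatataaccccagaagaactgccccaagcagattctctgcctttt
Myl3: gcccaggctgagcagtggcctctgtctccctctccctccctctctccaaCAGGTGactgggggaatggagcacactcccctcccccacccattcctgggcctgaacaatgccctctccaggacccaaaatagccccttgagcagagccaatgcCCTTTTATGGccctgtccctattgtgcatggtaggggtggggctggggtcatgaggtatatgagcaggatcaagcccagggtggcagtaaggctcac
The Myl4 window holds 3 E-box matches, from positions -240, -119 and -77 before the start, and a TATA box on the opposite strand at -91. The Mylpf window holds an E-box match at -155. The Myl3 window holds an E-box match at -201 and a CArG box, the site of serum response factor, from -97 to -88. Of 33469 rat promoters of the same length, 65.5% hold an E-box match, 12.9% a TATA box, 2.96% a MEF2 site and 1.5% a CArG box. An E-box match is thus common, and none of these matches is a measured site.

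Levels below are log2 signals after each array was brought to a common median. The array medians of the deposited signal lay between 29.8 and 49.3, a span of 0.73 on the log2 scale. After scaling, the median gene differed by -0.34 between short-term muscle and control, by 0.37 between long-term and short-term muscle and by 0.02 between long-term muscle and control. On the deposited scale these values were -0.31, 0.26 and -0.06. Changes are therefore printed relative to the median gene of the comparison, while the adjusted p (limma, Benjamini-Hochberg over 11064 genes, threshold 0.05) tests the scaled change before that subtraction. Of the genes called in short-term muscle, 23.7% were higher under this scaling and between 25.4% and 56.2% under the 4 other scalings. Long-term against short-term muscle gave 77.9% higher, and 42.2% to 69.5% under the others. For the slope over time, 84.5% of the called genes were higher, and 43% to 80.6% under the others. At 1 week 17.7% of called genes were higher, and 22.5% to 53.5% under the others. At 2 weeks 20.7% were higher, and 13.2% to 55.8% under the others. Defining genes of slow soleus fibres (Myh7, Tnnt1, Tnni1, Tnnc1 and Atp2a2) were bright on all arrays, with a summed log2 signal of 14.95 to 16.00, and both skin markers stayed below the filter. The ratio of 3′ to 5′ Gapdh probe sets, a measure of RNA quality, was 1.16 to 1.61 on the short-term arrays, 1.38 to 2.78 on the controls and 1.38 to 2.78 on the long-term arrays. That of actin was 1.97 to 3.87, 1.47 to 2.37 and 1.39 to 3.74 in the same order, with its highest value on the 2-week array of rat 27. The part of RNA quality in the results was not tested.

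Myl4 was higher in short-term tenotomized soleus than in control, on both 1-week arrays and on 1 of the 2-week arrays above all, and Mylpf was higher as well by a call that rested on 2 control arrays. Myl2 by its first probe set, Myl3 and Myl1 lay within 0.22 of the median gene in that comparison. The second Myl2 probe set stood at -0.29 relative to the median probe set. In short-term muscle against control 2 of 5 members were called higher, against 12.3% of all genes tested, and 0 were called lower, against 39.6%. The median gene is at 0 on this relative scale, and the members lay between 0.03 (Myl3) and 1.88 (Myl4). In long-term muscle no member differed from control past the threshold.

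**Figure D1:**
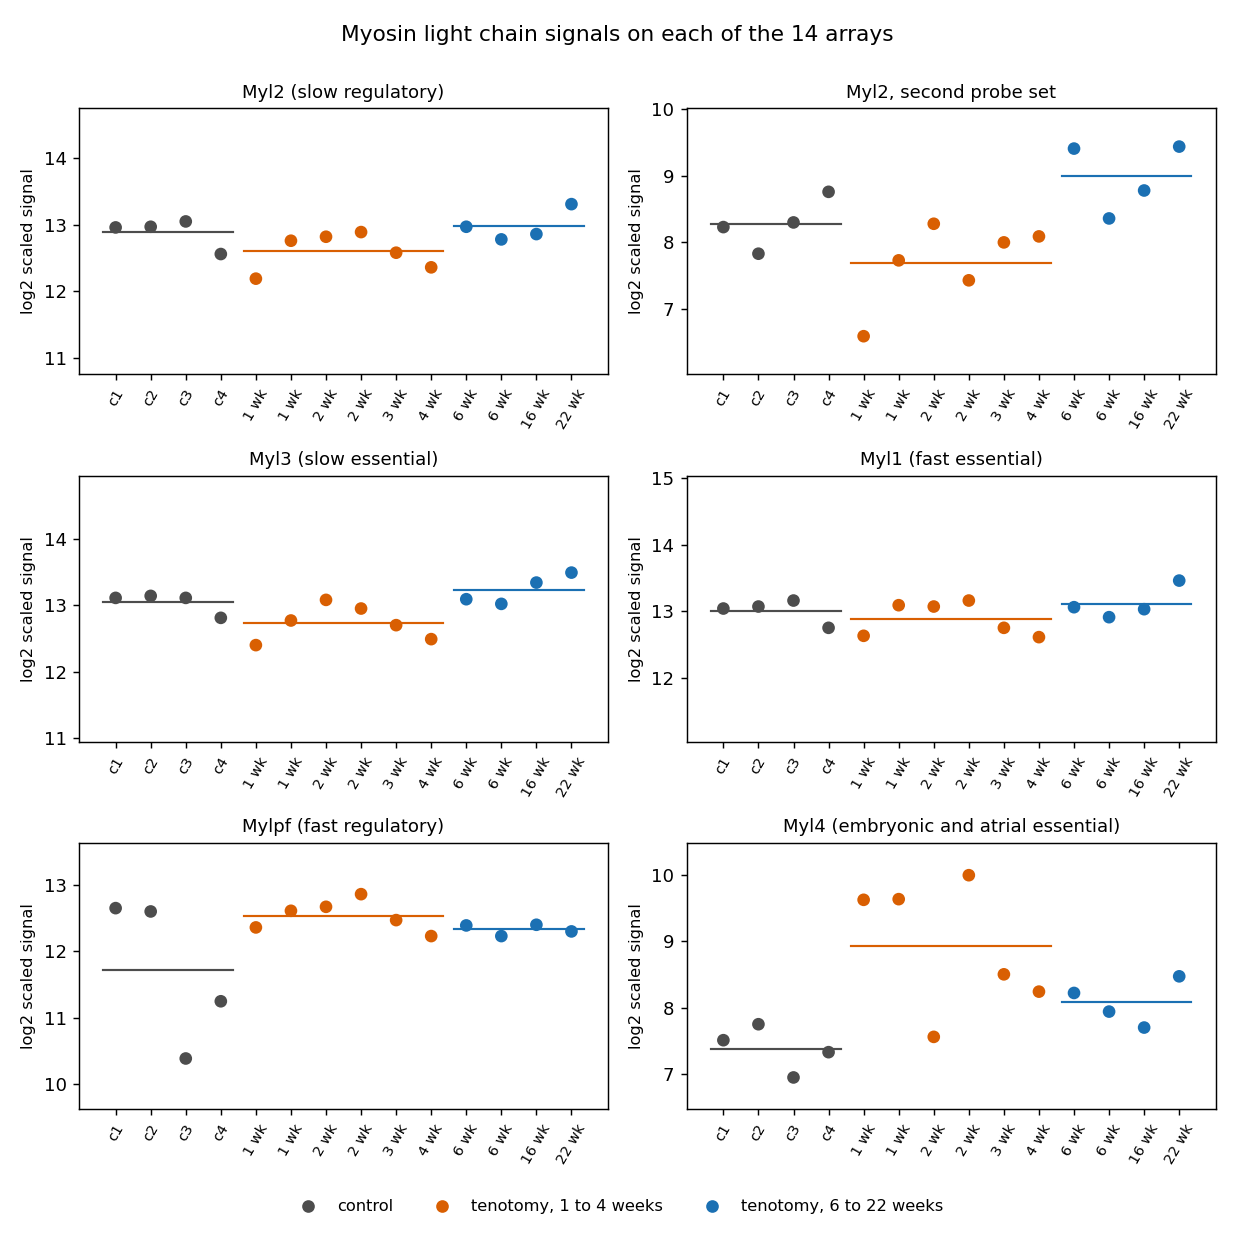
Log2 scaled signal of each myosin light chain probe set on each of the 14 arrays, with controls 1 to 4 (c1 to c4) at the left and tenotomized muscles by week to the right; each panel spans the same number of log2 units and horizontal lines are group means. Myl4 lies above all controls on 5 of 6 short-term arrays, and Mylpf is low on control 3 (10.39) and control 4 (11.25).

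Myl4, the embryonic and atrial essential chain, read 7.51, 7.75, 6.95 and 7.33 on controls 1 to 4. On the short-term arrays it read 7.56 at the lowest, 9.06 at the median and 9.99 at the highest. On the long-term arrays it read 8.22 and 7.94 at 6 weeks, 7.70 at 16 weeks and 8.47 at 22 weeks. Thus 5 of 6 short-term arrays and 3 of 4 long-term arrays lay above every control, and 1 array of each group fell within the range of the controls. The short-term and long-term groups also overlapped each other. As geometric means the signal was 167 in control, 485 in short-term and 271 in long-term muscle. Against the median gene Myl4 rose 3.68-fold after short-term tenotomy, or by 1.88 in log2 (SE 0.38, 95% interval 1.08 to 2.68, n = 6 and 4, adjusted p = 0.0031 by limma). This change ranked 359th from the top among the 11064 genes tested. It was called under all 5 scalings, and leaving out any single array gave 1.66 to 2.14. Without both control 3 and control 4 it was 1.63 with an adjusted p = 0.055.

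The 2 muscles at 1 week gave Myl4 levels of 9.62 and 9.63, which hardly differed. The 2 muscles at 2 weeks read 7.56 (rat 25) and 9.99 (rat 27), the lowest and the highest of the short-term group. At 3 weeks the level was 8.50 and at 4 weeks 8.24, each from a single array and above all controls. At 1 week Myl4 stood 2.57 above control relative to the median gene (SE 0.49, 95% interval 1.51 to 3.63, n = 2 and 4, adjusted p = 0.0052 by limma), a 5.94-fold difference. It was called higher at 1 week under all 28 alternative settings, with adjusted p-values up to 0.043. Of all genes 6.17% were called higher at 1 week and 28.8% lower. At 2 weeks the relative change was 1.77 (SE 0.49, 95% interval 0.71 to 2.84, adjusted p = 0.034 by limma), and 9.84% of all genes were called higher and 37.7% lower. That call was lost without the array of rat 27, with a change of 0.58 and an adjusted p = 0.65, and without the array of rat 25 the change was 2.97. Without control 1, control 3 or control 4 the change was 1.79, 1.61 and 1.76, close to the value of all arrays, with adjusted p-values of 0.056, 0.074 and 0.057.

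From short-term to long-term muscle Myl4 had a relative change of -1.22 (SE 0.38, 95% interval -2.01 to -0.42, n = 4 and 6), with an adjusted p = 0.068 by limma for the scaled change. Of all genes 12.1% were called lower in this comparison and 42.4% higher. Under the 4 other scalings and a median taken over the tested genes the same gene passed the threshold, with adjusted p-values of 0.04 on the deposited scale, 0.027 at a common 75th percentile, 0.024 after quantile normalization, 0.016 at a common trimmed mean and 0.03 at the median of the tested genes. It also passed without the array of rat 25 (-1.48, adjusted p = 0.0084) or of rat 42 (-1.35, adjusted p = 0.043). Over the 10 tenotomized arrays its slope was -0.47 per doubling of time (SE 0.13, adjusted p = 0.058 by limma), where 5.49% of all genes were called lower and 29.9% higher. The level was thus lower late than early in each of these settings, while the call depended on the setting.

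**Figure D2:**
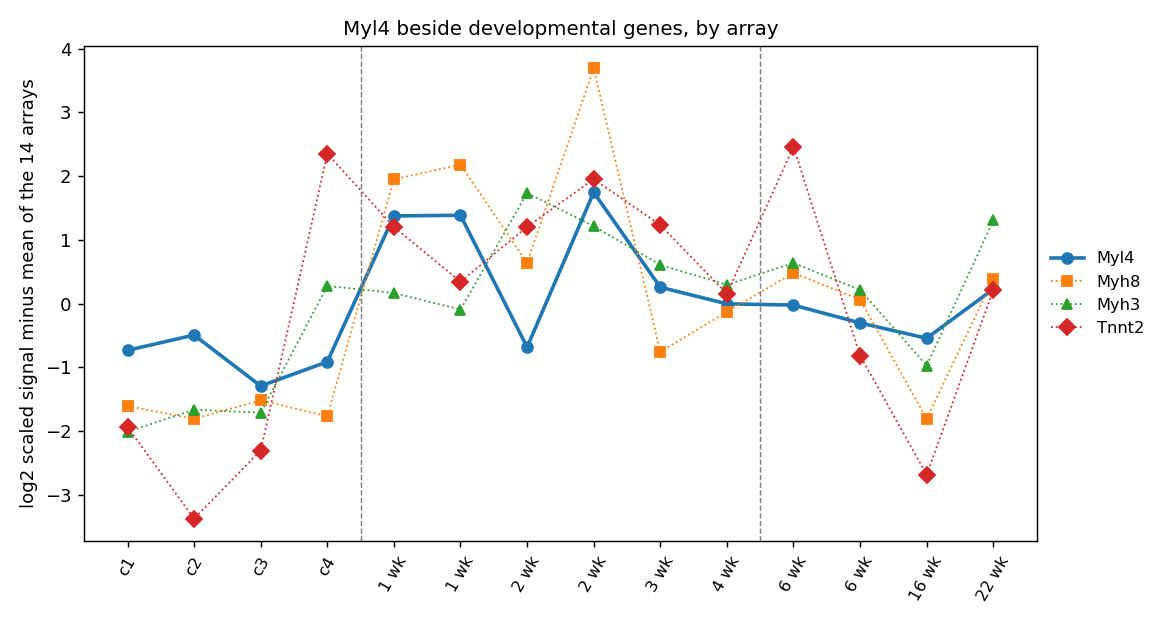
Log2 scaled signal of Myl4 and of the developmental genes Myh8, Myh3 and Tnnt2 on each array, each minus its own mean over the 14 arrays; dashed lines part controls (c1 to c4), short-term and long-term arrays. Myl4 and Myh8 are both lower on the first 2-week array (7.56 and 5.70 in log2 signal) than on the second (9.99 and 8.75), whereas Myh3 is higher there (12.18 and 11.66).

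Of the genes tested, Myh8, the perinatal myosin heavy chain, had the pattern most like Myl4 over the 14 arrays (r = 0.88). Cd3d, a chain of the T cell receptor complex, followed with r = 0.86 and Serpinb6b, a serpin, with 0.84. Myh8 read 5.70 on the array of rat 25 and 8.75 on that of rat 27, so that it differed at 2 weeks in the same direction as Myl4, though unlike Myl4 it lay above every control on both arrays. Myh3, the embryonic heavy chain, read 12.18 and 11.66 on the same arrays and did not share that split. Myh8 was dim in control muscle, between 3.25 (the floor) and 3.54, so the size of its relative change, 3.28 (SE 0.67, adjusted p = 0.0019 by limma), depends on low signals. Myh3 rose by 2.28 (SE 0.47, adjusted p = 0.0027), and Tnnt2, the cardiac and embryonic troponin T, by 2.67 (SE 0.94, adjusted p = 0.046), and it stood at 2.37 without the 2-week arrays (adjusted p = 0.13). Tnnt2 was bright on control 4 (10.13) and between 4.40 and 5.84 on controls 1 to 3, and Myh3 was higher on control 4 (10.72) than on controls 1 to 3 (8.43 to 8.78). Myl4 did not show this split. Without controls 3 and 4 the changes were 2.83 for Myh3 (adjusted p = 0.0025) and 4.00 for Tnnt2 (adjusted p = 0.0067). In the list of 8 tested developmental and atrial genes 3 rose and 1, Myh6, fell in short-term muscle, beside 12.3% and 39.6% of all genes. The median relative change of the list was 1.38. Without controls 3 and 4 the list had 4 higher and 1 lower. Of the atrial markers Nppa, Nppb, Myl7 and Sln, only Sln, which encodes sarcolipin, passed the filter on dim signals. It rose by 1.62 in short-term muscle (SE 0.29, adjusted p = 0.0019), and stood at 1.80 without controls 3 and 4. Its part in the Myl4 result was not tested.

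Mylpf, the fast regulatory chain, read 12.65 and 12.60 on controls 1 and 2, and 10.39 and 11.25 on controls 3 and 4. The short-term arrays lay between 12.23 and 12.86 with a median of 12.54. The long-term arrays read 12.39 and 12.23 at 6 weeks, 12.40 at 16 weeks and 12.30 at 22 weeks. All 10 tenotomized arrays were close to controls 1 and 2 and far above controls 3 and 4, and only 2 of 6 short-term arrays lay above every control. The control SD of 1.10 (n = 4) stood against 0.23 in short-term (n = 6) and 0.08 in long-term muscle (n = 4). Mylpf was called higher in short-term muscle with a relative change of 1.15 (SE 0.32, 95% interval 0.47 to 1.84, adjusted p = 0.045 by limma), a 2.22-fold difference. The call held under all 5 scalings but was lost in 18 of 29 alternative settings. It was lost on leaving out any of 11 of the 14 arrays, all but control 1, control 2 and the 4-week array, with changes from 0.70 without control 3 (adjusted p = 0.23) and 0.99 without control 4 (adjusted p = 0.14) upward. Without both of these controls the change was 0.24 with an adjusted p = 0.69.

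**Figure D3:**
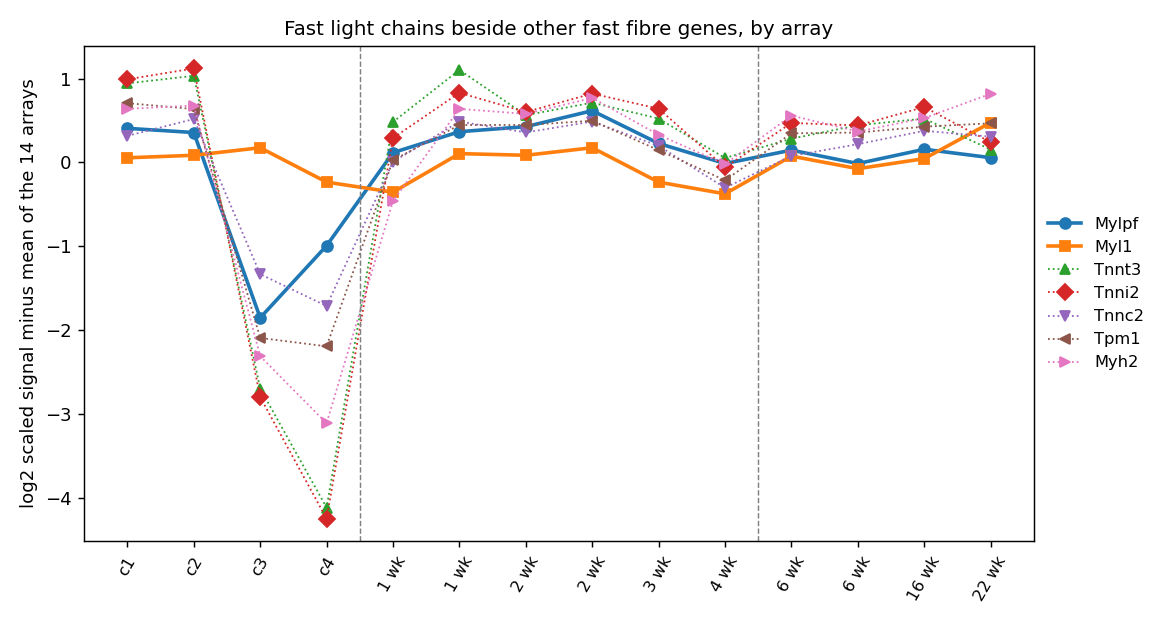
Log2 scaled signal of the fast light chains Mylpf and Myl1 and of 5 other fast fibre genes on each array, each minus its own mean over the 14 arrays; dashed lines part controls (c1 to c4), short-term and long-term arrays. Mylpf and the 5 other genes are lowest on controls 3 and 4, where Mylpf read 10.39 and 11.25, while Myl1 is not (13.16 and 12.75).

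The same 2 controls were low in some other fast fibre genes. In the list of 11 fast fibre genes, 7 had both controls 3 and 4 below both controls 1 and 2. The other 4, Actn3, Casq1, Myh4 and Pvalb, did not. Without controls 3 and 4 Actn3 stood at 1.60 (adjusted p = 0.12) and Pvalb at 1.68 (adjusted p = 0.098), against 2.02 and 1.54 with all arrays. The genes most like Mylpf over the 14 arrays were Tpm1, an actin-binding tropomyosin (r = 0.93), Tnnc2, the fast troponin C (0.91), and Tnni2, the fast troponin I (0.89). Tnni2 read 12.42, 12.55, 8.63 and 7.18 on controls 1 to 4, and Tnnt3, the fast troponin T, read 12.40, 12.49, 8.76 and 7.34. Myh2, the heavy chain of type IIa fibres, read 12.97, 13.01, 10.02 and 9.22. Control 3 was the lowest array for Mylpf, whereas control 4 was the lowest for Tnni2, Tnnt3 and Myh2. In that list 4 rose in short-term muscle and 1 fell, beside 12.3% and 39.6% of all genes, with a list median of 1.54. Without controls 3 and 4 there were 1 of each, with a median of -0.09. Myh4, the heavy chain of type IIb fibres, was the 1 gene that rose in both cases, by 2.87 (SE 0.66, adjusted p = 0.0046 by limma), and by 3.15 without these controls (adjusted p = 0.023). Tnnt3 had a change of 2.13 (adjusted p = 0.049), and of -0.08 without them (adjusted p = 0.14). In bulk muscle, fewer fibres of a type and less RNA per fibre cannot be told apart.

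Myl1, the fast essential chain, did not follow Mylpf. It read 13.04, 13.07, 13.16 and 12.75 on controls 1 to 4, so that control 3 was its highest control and the lowest for Mylpf. The short-term arrays lay between 12.61 and 13.16 with a median of 12.91, and the long-term arrays read 13.06, 12.91, 13.03 and 13.46. All 3 groups overlapped. The relative change of Myl1 was 0.22 in short-term muscle (SE 0.15, 95% interval -0.10 to 0.54, adjusted p = 0.52 by limma), and over the 14 arrays its correlation with Mylpf was 0.05. The genes most like Myl1 were Tnni1, the slow troponin I, COX1, a mitochondrial subunit of cytochrome oxidase, and Fhl1, a LIM domain protein of muscle, with r = 0.99 each.

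The deposited signals of Myl1 hardly varied, from 7414 to 9487 over the 14 arrays, a span of 0.36 on the log2 scale and less than that of the array medians. Its scaled level correlated with the log2 median of the array with r = -0.92, Myl2 with -0.81 and Myl3 with -0.64, where each point is an array and the scaling itself subtracts that median. The values for Mylpf (-0.14) and Myl4 (-0.19) were nearer 0. On every array Myl1, Myl3 and the first Myl2 probe set stood among the brightest 98 of 31099 probe sets, which ranks probe signals and not transcript amounts. The 100 brightest genes had a median deposited span of 0.73, against 1.71 for all genes tested. In short-term muscle 46 of these 100 were called lower and 0 higher, against 39.6% and 12.3% of all genes. Their median relative change was 0.02. From short-term to long-term muscle 57 of the 100 were called higher and 0 lower, against 42.4% and 12.1% of all genes. At 2 weeks the relative changes were 0.49 for Myl1 (95% interval 0.12 to 0.86), 0.36 for Myl3 (0.02 to 0.70) and 0.36 for Myl2 (-0.06 to 0.77). On the scaled signals these were 0.11, -0.03 and -0.03, and none was called (adjusted p = 0.61, 0.9 and 0.92 by limma).

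Between the 3 groups the slow chains, Myl2 by its first probe set, changed little against the median gene. Myl2, the slow regulatory chain, read 12.96, 12.97, 13.05 and 12.56 on the controls, and from 12.19 to 12.89 on the short-term arrays with a median of 12.67. It read 12.97, 12.78, 12.86 and 13.31 on the long-term arrays. Each pair of groups overlapped, and on these scaled signals control 4 lay below the other controls. Its relative change was 0.06 in short-term muscle (SE 0.16, 95% interval -0.28 to 0.40, adjusted p = 0.15 by limma) and 0.00 from short-term to long-term muscle (95% interval -0.33 to 0.34, adjusted p = 0.055). The genes most like it were Tnnc1, the slow and cardiac troponin C (r = 0.98), Actn2, an actinin of the Z disc (0.98), and Car3, the carbonic anhydrase of slow fibres (0.97).

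Myl3, the slow essential chain, read 13.11, 13.14, 13.11 and 12.81 on the controls and from 12.40 to 13.08 on the short-term arrays, with a median of 12.74. On the long-term arrays it read 13.09 and 13.02 at 6 weeks, 13.34 at 16 weeks and 13.49 at 22 weeks. The arrays at 16 and 22 weeks were the highest of all 14, and 4 of 6 short-term arrays lay below every control. In short-term muscle its relative change was 0.03 (95% interval -0.28 to 0.35, adjusted p = 0.088 by limma). From short-term to long-term muscle Myl3 was the 1 member of 5 called higher, with a scaled change of 0.50 and an adjusted p = 0.0092, against 42.4% of all genes. Relative to the median gene this was 0.13 (SE 0.15, 95% interval -0.18 to 0.44). The call was lost at a common 75th percentile (adjusted p = 0.27), at a common trimmed mean (0.72) and at a common median of the tested genes (0.21).

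Myl3 was also the 1 member called over time and the 1 member called lower at 1 week. Its slope was 0.05 per doubling of time relative to the median gene (scaled slope 0.18, adjusted p = 0.034 by limma), a call lost under 10 of 21 alternatives. At 1 week it stood at -0.13 relative to the median gene (scaled change -0.46, adjusted p = 0.039), a call lost under 14 of 28 alternatives, and without the first 1-week array (rat 12) the relative change was 0.06. The slope call was lost without the 22-week array (adjusted p = 0.18), the 16-week array (0.087), either 6-week array (0.054 and 0.053) or the first 1-week array (0.096). The 1-week call was lost on leaving out control 1 (adjusted p = 0.09), control 2 (0.084), control 3 (0.081) or either 6-week array (0.06). The genes most like Myl3 were Eno3, the muscle enolase (r = 0.97), Atp5f1e, a subunit of ATP synthase (0.96), and Tnnc1 (0.95).

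Myl2 has a second probe set that was dimmer than the first, at levels near those of Myl4, and gave another picture. It read 8.23, 7.83, 8.30 and 8.76 on the controls, and from 6.59 to 8.28 on the short-term arrays with a median of 7.87. On the long-term arrays it read 9.41 and 8.36 at 6 weeks, 8.78 at 16 weeks and 9.44 at 22 weeks. All 4 long-term arrays lay above all 6 short-term arrays, and the lowest array of all was the first at 1 week. In a fit of 20334 probe sets its change from short-term to long-term muscle was 0.97 relative to the median probe set (SE 0.30, 95% interval 0.34 to 1.60, adjusted p = 0.0023 by limma), where 36.2% of all probe sets were called higher. The first probe set gave 0.04 in the same fit (adjusted p = 0.064). The slope of the second probe set was 0.37 per doubling of time (SE 0.10, adjusted p = 0.0092), where 22.4% of probe sets were called higher. That of the first probe set was 0.02 (adjusted p = 0.12). Against control the second probe set stood at -0.29 in short-term muscle (95% interval -0.92 to 0.35, adjusted p = 0.11 by limma) and the first at 0.03. At 1 week the second stood at -0.83 (95% interval -1.69 to 0.02, adjusted p = 0.05 by limma, not called) and the first at -0.12. Which part of the transcript either probe set reads was not analysed here, and the probe sets of Myl2 disagree in size.

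**Figure D4:**
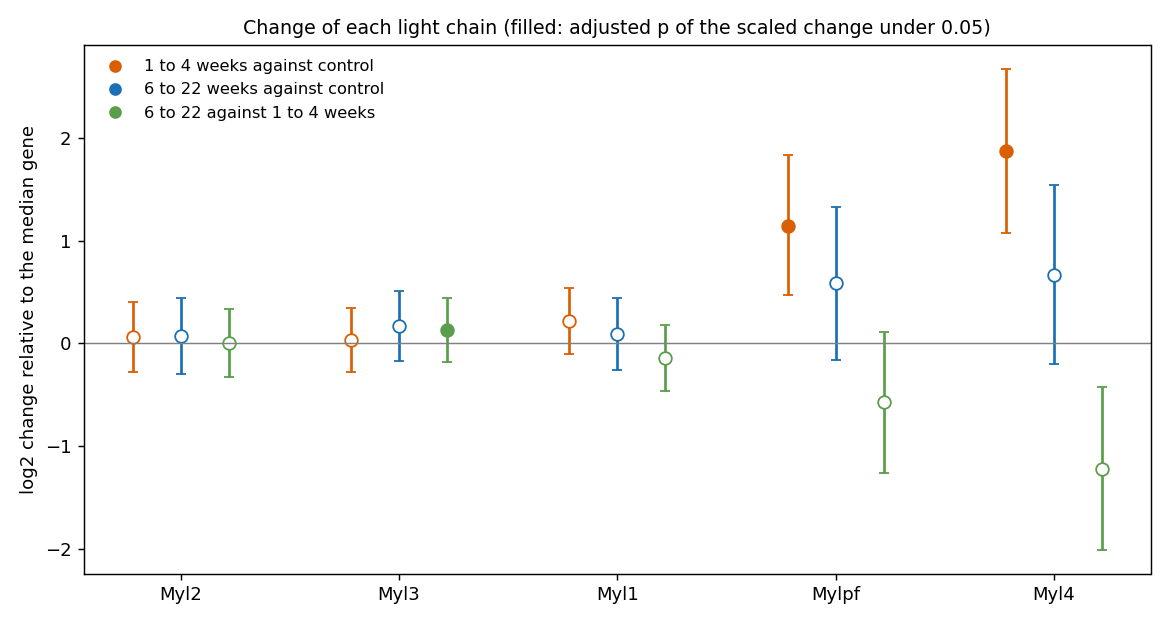
Log2 change of each light chain gene relative to the median gene in 3 comparisons, with 95% intervals; filled points passed an adjusted p of 0.05 for the scaled change (limma). Myl4 (1.88) and Mylpf (1.15) are filled for short-term muscle against control, while Myl3 is filled for long-term against short-term muscle with an interval that includes 0 (-0.18 to 0.44).

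Ratios of light chains within an array cancel the scale of the array, and only their differences between arrays are read. The ratio of Mylpf to Myl2, the fast over the slow regulatory chain, is given in log2 minus the mean of the controls. It was 0.85, 0.79, -1.49 and -0.15 on controls 1 to 4, between 1.01 and 1.32 on the short-term arrays and between 0.15 and 0.71 on the long-term arrays. All 6 short-term arrays lay above all 4 controls, though by little over controls 1 and 2, and the long-term arrays lay below controls 1 and 2. The ratio of Myl1 to Myl3, the fast over the slow essential chain, stayed within 0.37 of the control mean on every array. It was -0.03 to 0.09 on the controls, 0.03 to 0.37 on the short-term and -0.27 to 0.01 on the long-term arrays. Thus the short-term and long-term arrays did not overlap in this ratio, and the controls lay between them with some overlap on each side.

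The ratio of Myl4 to Myl3 was -0.50 to 0.27 on the controls. It was 2.88 and 2.52 at 1 week, 0.14 and 2.69 at 2 weeks, 1.45 at 3 weeks and 1.41 at 4 weeks. It was 0.79 and 0.57 at 6 weeks, 0.02 at 16 weeks and 0.63 at 22 weeks. Apart from the first 2-week array, every short-term array lay above every control and every long-term array.

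**Figure D5:**
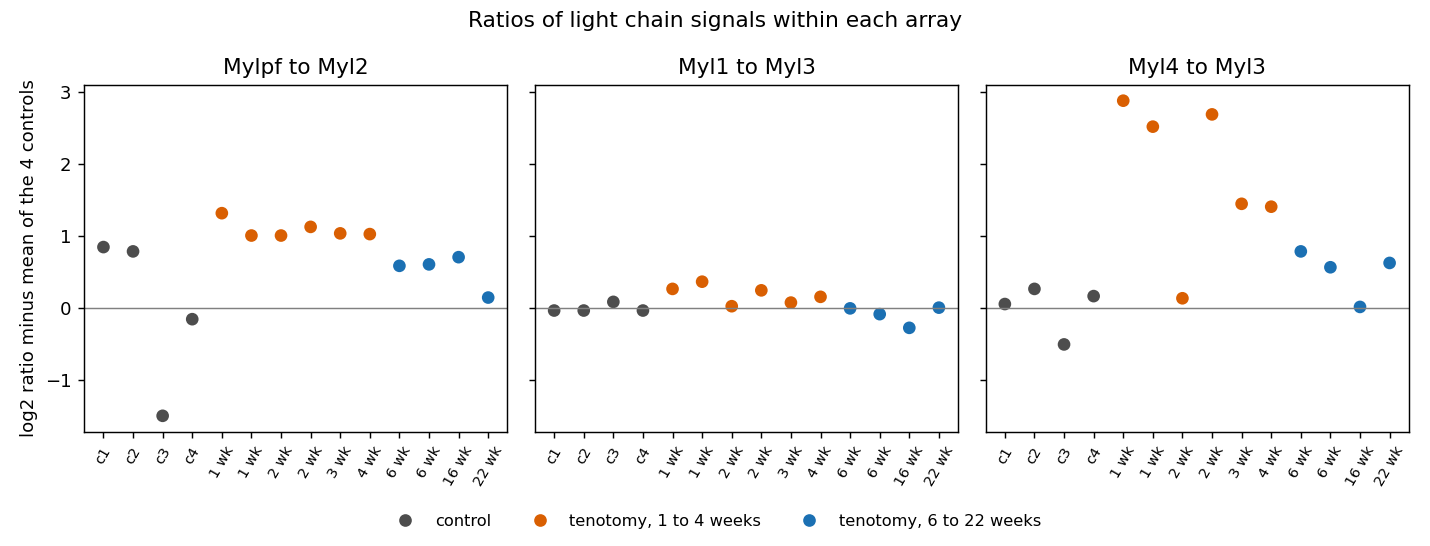
Log2 ratio of light chain signals within each array minus the mean of the 4 controls, for Mylpf to Myl2, Myl1 to Myl3 and Myl4 to Myl3; controls 1 to 4 (c1 to c4) stand at the left and tenotomized muscles by week to the right. The ratio of Myl4 to Myl3 is high at 1 week (2.88 and 2.52) and on the second 2-week array (2.69), and that of Mylpf to Myl2 spreads from -1.49 to 0.85 among the controls.

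Long-term muscle was compared with control to ask what remained after 6 to 22 weeks. None of the 5 members was called, as 0% of all genes were called by limma at the adjusted threshold. At an unadjusted p under 0.05 there were 218 genes and 0 members. In the fit of all probe sets the second Myl2 probe set stood at 0.69 (95% interval -0.01 to 1.38, unadjusted p = 0.044, adjusted p = 1 by limma), with 3 of 4 long-term arrays above every control. The relative changes were 0.67 for Myl4 (SE 0.41, 95% interval -0.20 to 1.55), 0.59 for Mylpf (SE 0.35, 95% interval -0.16 to 1.33), 0.17 for Myl3, 0.09 for Myl1 and 0.07 for Myl2. Without controls 3 and 4 the Mylpf value turned to -0.32. At 6 weeks against control 0% of genes were called, with 485 genes and 0 members at an unadjusted p under 0.05, and Myl4 stood at 0.73 and Mylpf at 0.63.

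Rats 61 and 62 allow the tenotomized leg to be set against the opposite leg of the same animal at 6 weeks. Relative to the median gene of each animal, Myl4 was higher in the tenotomized leg by 0.89 in rat 61 and by 0.60 in rat 62. Mylpf differed by 1.14 in rat 61, whose control leg is control 4, and by -0.25 in rat 62. The second Myl2 probe set differed by 0.65 and 0.30. The first probe set of Myl2 differed by 0.41 and -0.01, Myl3 by 0.27 and 0.08, and Myl1 by 0.30 and 0.04. On this relative scale both rats moved the same way for Myl4, Myl3, Myl1 and the second Myl2 probe set. They moved in opposite ways for Mylpf and the first Myl2 probe set. Before the median gene was subtracted, Myl3 differed by 0.28 in rat 61 and -0.09 in rat 62, and Myl1 by 0.31 and -0.13. The direction for Myl3 and Myl1 thus depended on that subtraction, and that for Myl4 and the second Myl2 probe set did not.

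Genes that act with the light chains were described by fixed lists, beside a median of 0 over all genes. Of 3 other light chains tested 2 rose in short-term muscle, beside 12.3% of all genes called higher, with a list median of 0.76. The 2 were Myl9, the regulatory chain of smooth muscle (1.14, SE 0.29, adjusted p = 0.029 by limma), and Myl12b, a regulatory chain of non-muscle myosin (0.76, SE 0.17, adjusted p = 0.044). Without controls 3 and 4 their changes were of like size, 1.04 and 0.81, and neither was called (adjusted p = 0.16 and 0.11). Without the 2-week arrays Myl9 stood at 0.91 (adjusted p = 0.12). In short-term muscle against control 1 of 4 smooth muscle markers rose, beside 12.3% of all genes. In the same comparison 5 of 6 fibroblast markers and 6 of 8 macrophage markers rose. The summed log2 signal of the fibroblast markers was 13.01 to 13.61 in control and 14.29 to 15.10 in short-term muscle, and that of the macrophage markers was 10.43 to 11.28 and 11.67 to 12.81. In long-term muscle these sums were 12.03 to 13.67 and 10.54 to 11.33. The part of these cells in the light chain results was not tested.

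Among 17 tested kinases, phosphatase subunits and calmodulin genes 0 rose and 4 fell in short-term muscle, with a median of 0.14, beside 12.3% of all genes called higher and 39.6% called lower. Mylk2, the light chain kinase of skeletal muscle, read 10.27, 10.40, 10.03 and 10.10 on the controls. The short-term arrays lay between 8.28 and 9.84 and the long-term arrays between 9.60 and 10.73. All 6 short-term arrays lay below all 4 controls, and the long-term arrays spread on both sides of them. Its relative change was -0.69 in short-term muscle (SE 0.29, adjusted p = 0.008 by limma) and 0.59 from short-term to long-term muscle (SE 0.29, adjusted p = 0.011). Camk2b, a calmodulin-dependent kinase, fell by 0.42 (SE 0.17, adjusted p = 0.0017) and Ppp1cb, the catalytic subunit of myosin phosphatase, fell by 0.37 (SE 0.15, adjusted p = 0.0012). Rock2, a kinase that inhibits that phosphatase, had a relative change of only -0.16 (SE 0.16). Its adjusted p = 0.017 by limma tests the scaled change of -0.50. Without controls 3 and 4 Rock2 stood at 0.04 (adjusted p = 0.28). From short-term to long-term muscle 7 of the 17 rose and 0 fell, with a median of 0.06, a share near the 42.4% of all genes called higher. Among these 7 the largest change was that of Mylk3, the cardiac light chain kinase, at 0.85 (SE 0.42). The adjusted p = 0.021 by limma for Mylk3 tests the scaled change of 1.22. Mylk3 was dim, at 3.59 to 5.78 on the short-term arrays and 5.08 to 6.83 on the long-term arrays. The size of its change thus depends on low signals. Camk2b followed at 0.61 (adjusted p = 0.00026).

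The heavy chains that carry the light chains moved in both directions. Of 7 tested, 3 rose and 2 fell in short-term muscle, beside 12.3% and 39.6% of all genes. The list median was 1.67, or 0.13 without controls 3 and 4. Besides Myh8, Myh3 and Myh4, which rose, Myh1, the heavy chain of type IIx fibres, fell by 1.21 (adjusted p = 1.3e-05 by limma), and Myh6, the alpha cardiac chain, fell by 0.70 (adjusted p = 0.0017). Myh7, the slow heavy chain that pairs with Myl2 and Myl3, had a relative change of 0.17 (adjusted p = 0.38), and Myh2 one of 1.67 (adjusted p = 0.06). Among 10 other slow fibre genes 5 were called lower and 0 higher, beside 39.6% and 12.3% of all genes, with a median of 0.02, close to the values of Myl2 and Myl3. Without controls 3 and 4 1 slow gene was called lower, and the list median was -0.03. All genes called went from 5745 to 3674 on leaving out these controls.

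Over the 14 arrays Myl2, Myl3 and Myl1 varied together, with r = 0.92 for Myl2 and Myl3, 0.94 for Myl2 and Myl1 and 0.85 for Myl3 and Myl1. These arrays share their scaling, and these are the 3 members whose scaled level ran most strongly opposite to the array median. Mylpf correlated with Myl4 at 0.54 and with the other members between -0.03 and 0.05. Myl4 correlated with Myl3 at -0.43, with Myl2 at -0.29 and with Myl1 at -0.05.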

How the data were processed

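The deposited values are probe set signals, a linear intensity that the authors computed with MAS5, per the submitters' processing notes, whose scaling target and genome build are not given in the sources used here. Intensities were taken to log2, arrays were aligned on their medians, a floor was set at the pooled 25th percentile (signal 9.53), and the probe set with the highest mean stood for a gene. Genes above the pooled 40th percentile (signal 21.6) on at least 4 arrays were tested, 11064 in all. Groups came from the sample labels. The model was fitted with limma 3.58.1 in R 4.3.3 on all 14 arrays with an intensity trend, with a mean per group, or a mean per time point for 1, 2 and 6 weeks. A slope on log2 of the week used the 10 tenotomized arrays. P-values were adjusted by Benjamini-Hochberg across the genes tested, with a threshold of 0.05. The procedure was tested on simulated data. Arrays have no count depth, so their number limits the precision, and p-values measure the spread between these muscles.

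Named genes are all members, always Myh7, Myh2, Myh4, Myh3, Mylk2 and Myl9, up to 4 called genes per direction of each list, and the 3 genes most correlated with each member. Other genes shown by array (Tnnt3, Tnni2, Tpm1, Tnnc2 and Tnnt2), and the change of Sln, were picked after their values were seen. Members and lists were chosen with earlier results of these data known. Rats 61 and 62 gave both legs, so the labels pair these arrays. The deviations of both legs from their group means correlated with r = 0.41 and 0.21, and at -0.08 and -0.03 when crossed. The p-values otherwise treat the arrays as independent. Myl6 is not named because its probe set carries several symbols. Alternatives changed the scaling, floor, filter, variance trend, probe set choice, arrays in the fit and rat block, and left out each array in turn.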

Additional observations from a re-analysis of the deposited data

Results flagged for a closer look

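After scaling, control 4 (rat 61) lay apart from the other 3 control arrays for the slow chains. Its log2 signal was 12.56 for Myl2, where the nearest control read 12.96, and 12.81 for Myl3, where the nearest read 13.11. In both cases the gap to the nearest array took up most of the range of the group (0.83 and 0.913 of it). On the deposited signals control 4 was not the lowest control. Myl2 read 7411 there and 7318 on control 2, and Myl3 read 8868 there against 8213 and 8172 on controls 2 and 3. The array median, which the scaling subtracts, was 47.5 on control 4 and 35.2 to 40.8 on controls 1 to 3. Chance flags about 1 in 20 such groups, and 18 were examined. Long-term and short-term muscle, which share the control group, differed in Myl3 by a scaled log2 change of 0.50 (adjusted p = 0.0092 by limma) and in the second Myl2 probe set by 1.31 (adjusted p = 0.0023). Relative to the median gene or probe set these are 0.13 and 0.97.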

How the results depend on the processing

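Of 955 member values recomputed under other settings, 868 kept their side of the threshold without a called value turning, 53 lost a call, 30 gained one and 4 turned. Of the 868, 37 uncalled values changed sign. The 4 that turned changed the sign of the relative change, while the adjusted p tests the scaled change. Among them were Myl2 from short-term to long-term muscle under a stricter filter (-0.08) and Myl3 at 1 week without short replicate 1 (0.06). The others were Myl3 in short-term muscle without short replicate 3 (-0.05) or without the week-2 arrays (-0.13). Only Myl3 at 1 week was called in the main fit, and the others were called under the alternative alone. Without short replicate 1 the remaining 1-week array read 12.77 for Myl3, still below the control mean of 13.04. With single arrays left out, these Myl3 values ran from -0.32 to 0.06 at 1 week and from -0.05 to 0.10 in short-term muscle. The cause was not tested.

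In short-term muscle 2 members were called, and 1 without the filter, without the variance trend, over all probe sets, with only the compared arrays or without week 1. That count was 0 without controls 3 and 4, and 1 to 2 with a single array left out. From short-term to long-term muscle 1 member was called, 2 on the deposited scale, after quantile normalization or under a stricter filter, 3 without week 2, and 1 to 3 with a single array left out. The slope called 1 member, 2 after quantile normalization, at a trimmed mean or without week 2, 0 without the filter, and 0 to 2 with a single array left out. At 1 week 2 were called, 3 on the deposited scale, and 1 at the 75th percentile, after quantile normalization, at a trimmed mean, without the filter or trend, with only the compared arrays, at the median of the tested genes or without controls 3 and 4, and 1 to 3 with a single array left out. At 2 weeks 1 was called, 4 at a trimmed mean, 0 without the filter or trend, with only the compared arrays or without controls 3 and 4, and 0 to 2 with a single array left out. The 4 members at the trimmed mean were all called higher, where 2255 genes were called higher and 1783 lower. In the main fit at 2 weeks 1089 genes were called higher and 4171 lower. The common median of the tested genes and the removal of controls 3 and 4 or of week 2 were chosen after seeing the data.

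With the rat as a replicate block, and with the paired legs of rats 61 and 62 alone, 0 members were called at 6 weeks, as without the block, and no other count of members moved by more than 1.5 times. The paired legs called 2 genes at 6 weeks, where the fit of all arrays called 0, 4 without the filter, 37 without control 4 and 17 without controls 3 and 4. Long-term muscle against control called 0 genes, and 1 without the filter or without controls 3 and 4. For the slope, 3911 genes were called, 1647 on the deposited scale, 1836 at the 75th percentile, 1044 after quantile normalization, 1478 at a trimmed mean, 1740 at the median of the tested genes, 2106 without week 2, 2290 without the 16-week array and 391 without the 22-week array. Short-term muscle gave 5745 genes, 9237 probe sets, and 3674 genes without controls 3 and 4. From short-term to long-term muscle there were 6028 genes, 3987 on the deposited scale and 9545 probe sets. At 1 week 3865 genes became 2327 on the deposited scale, 2317 after quantile normalization, 2385 at a trimmed mean, 1709 or 2396 without short replicate 1 or 2, 2328 without controls 3 and 4, and 5935 probe sets. At 2 weeks 5260 genes became 3340 without short replicate 4, and 8595 probe sets.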
